A study of Mus musculus with 8 samples.

Results

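The genes described here are 9 genes of retinoid handling: Aldh1a1 and Aldh1a2 (synthesis of retinoic acid), Cyp26b1 (its breakdown), Rbp4 and Crabp2 (binding), Rarb and Rxrg (receptors) and Aox1 and Cyp2s1 (oxidation). They were chosen by symbol, and all 9 were found among the 22337 genes of the table. Aox1 and Cyp2s1 were picked because they were lower in the morphine libraries, so their values are a description with no test. The other 7 were chosen by function, with results of these libraries known. The tissue was the nucleus accumbens (the ventral striatum) of male C57BL/6 mice. There were 4 libraries from mice with morphine exposure, which the series title calls chronic, and 4 from mice given saline. Morphine is an opioid agonist of mu receptors. The sources used here give no age, dose or schedule and name no genetic change or other treatment. The labels do not say that the libraries of a group came from separate animals, so the p-values cover the spread among these libraries only, and that spread may be technical.

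Retinoic acid is made from vitamin A. Retinol travels in blood on RBP4, is oxidized to retinal by retinol dehydrogenases and then to retinoic acid by the ALDH1A enzymes, and CYP26 enzymes break retinoic acid down. Retinoic acid binds RAR receptors, which act on DNA as pairs with RXR receptors. In the adult brain Rarb and Rxrg are known as genes of the striatum, where mice lacking both have reduced dopamine receptor expression, and Aldh1a2 and Crabp2 are known from the meninges, the membranes around the brain.

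Levels are in FPKM, a fragment count corrected for transcript length and library size, so that genes can be compared. The library sums lay between 480003.6 and 540104.1 FPKM, and the read depth is unknown. A change is the morphine mean minus the saline mean of log2(FPKM + 1), a scale on which genes near 1 FPKM appear to change less than they do. All 24 striatal neuron markers listed for this report were tested, and their mean lay between 3.14 and 3.62 in the morphine libraries, between 4.76 and 5.06 in saline replicates 1, 2 and 4 and at 6.98 in saline replicate 3. The mean of 14 cortical markers was 3.16 in that library, between 4.67 and 4.95 in the morphine libraries and between 4.53 and 4.68 in the other saline libraries. Saline replicate 3 therefore stands apart, and results that rest on it are also given without it. None of the 24 striatal markers was listed at 0 in any library. Mitochondrially encoded genes took 6.09 to 7.94% of the summed FPKM in morphine libraries and 9.09 to 12.6% in saline libraries.

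Of the 7 genes not picked for being lower with morphine, none passed the test across all genes. With limma, 316 of 12536 tested genes passed an adjusted p of 0.05, which is 2.52% of them. That count was 0 without morphine replicate 3 or 4 or saline replicate 2, and 450 without saline replicate 4. Of the 7 genes, 6 had enough signal to be tested (4 or more libraries with 1 FPKM or above), and 0 of these 6 passed. Of the 6, 5 had negative changes, as 6016 of all 12536 tested genes had. In the direction of lower with morphine, 1.48% of all tested genes passed. At an unadjusted limma p under 0.05 there were 3, Rarb, Aldh1a2 and Crabp2, where 20.1% of all tested genes reached that level. In Rarb and Aldh1a2 the groups did not overlap, as in 12.7% of all tested genes (6.1% with the morphine libraries lower and 6.56% with them higher). The groups of Aox1 and Cyp2s1 also did not overlap, which follows from how they were picked. By mean level the order in morphine libraries was Rxrg, Rbp4, Aldh1a1, Rarb, Crabp2, Cyp2s1, Aldh1a2, Aox1 and Cyp26b1. In saline libraries it was Rxrg, Rarb, Aldh1a1, Rbp4, Crabp2, Aldh1a2, Cyp2s1, Aox1 and Cyp26b1. In morphine libraries the ranges of neighbours in this order overlapped, except between Aldh1a1 and Rarb and between Aldh1a2 and Aox1. In saline libraries they overlapped, except between Cyp2s1 and Aox1 and between Aox1 and Cyp26b1. The head of the saline order rests on saline replicate 3. Leaving that library out, it was Aldh1a1 (31.8 FPKM), Rxrg (28.3), Rarb (18.7) and Rbp4 (18.5), with the remaining genes in the same order.

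**Figure D1:**
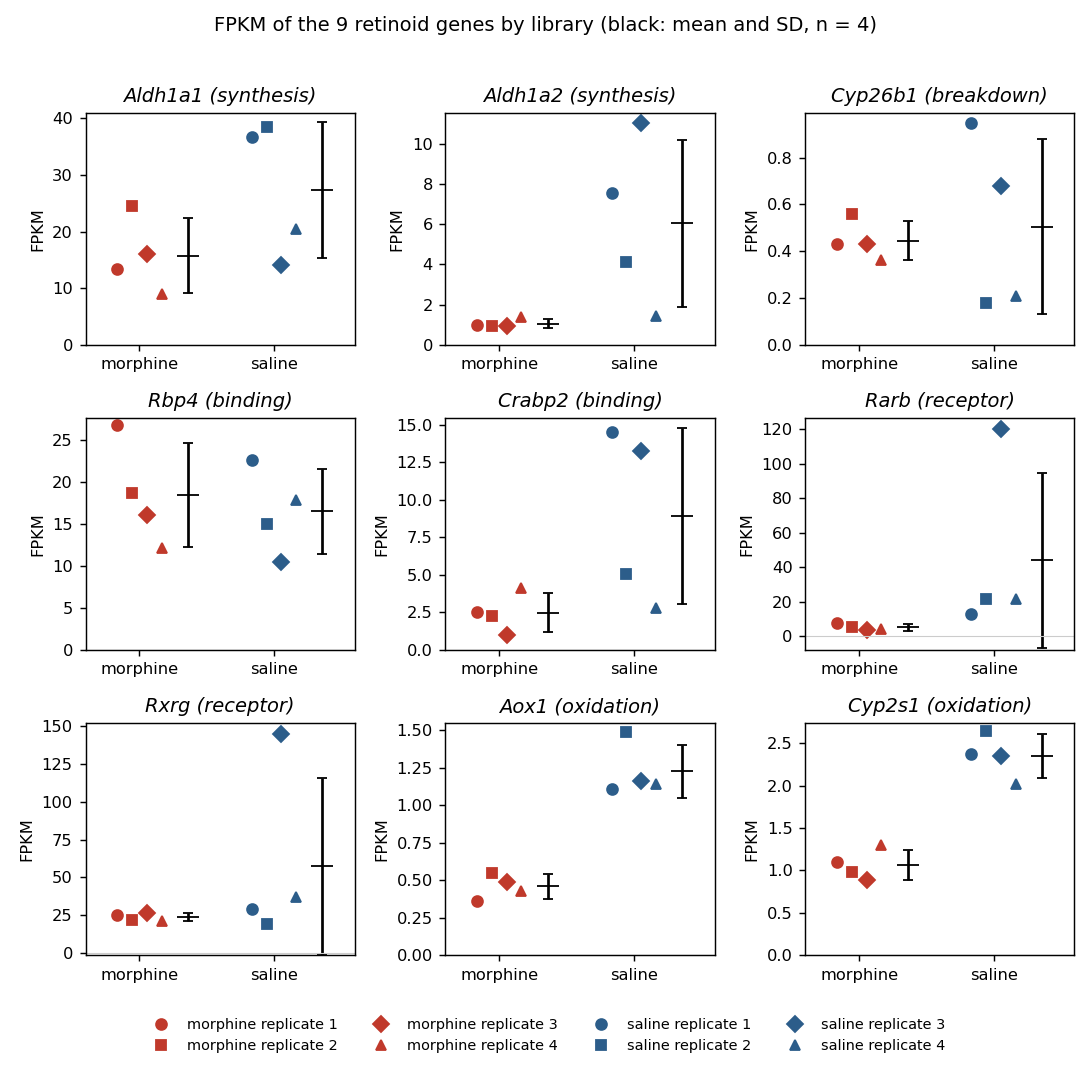
FPKM (vertical axis, linear) of each of the 9 genes in each library, morphine libraries in red on the left and saline libraries in blue on the right, with the symbol giving the replicate number and black marks the mean and SD of 4 libraries. Rarb had 3.32 to 7.58 FPKM in morphine libraries and 12.69 to 120.02 in saline libraries, and the highest values of Rarb, Rxrg and Aldh1a2 all belonged to saline replicate 3.

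Rarb encodes the retinoic acid receptor RARβ (ENSMUSG00000017491, chromosome 14, 16430839 to 16819156, minus strand, GRCm38). Its level was 7.58, 5.34, 3.32 and 4.08 FPKM in morphine replicates 1 to 4 and 12.69, 21.58, 120.02 and 21.74 FPKM in saline replicates 1 to 4. Every morphine value lay below every saline value, and saline replicate 3 was 6.43 times the mean of the other 3 saline libraries. The means were 5.08 ± 1.86 FPKM with morphine and 44.0 ± 50.9 with saline (SD, n = 4 each). The log2 change was -2.37 ± 0.55 (SE), just short of the threshold (limma adjusted p = 0.0518). Without saline replicate 3, whose removal lowers the saline mean to 18.7 FPKM, the change was -1.70 ± 0.25 and passed (limma adjusted p = 0.0111). It also passed with a pseudocount of 0.1 or 0.5 (limma adjusted p = 0.0490 and 0.0492) and with mitochondrial genes removed (limma adjusted p = 0.0463). It missed the threshold without any other single library (limma adjusted p between 0.056 and 0.15), and with no filter on low values (0.116), a minimum of 5 FPKM (0.0565), no trend (0.0579), quantile scaling (0.058) or the replicate block (0.0993). In such bulk tissue, fewer cells of a type and less RNA per cell cannot be told apart.

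A promoter of Rarb is shown because retinoic acid is known to act on this gene itself, through a direct repeat to which RAR and RXR bind. RefSeq (GRCm38.p6) places it at chr14:16575427-16575726 on the minus strand, 300 bases around a transcription start. It is printed 5′ to 3′ with the half-sites of the repeat in capitals.
Rarb: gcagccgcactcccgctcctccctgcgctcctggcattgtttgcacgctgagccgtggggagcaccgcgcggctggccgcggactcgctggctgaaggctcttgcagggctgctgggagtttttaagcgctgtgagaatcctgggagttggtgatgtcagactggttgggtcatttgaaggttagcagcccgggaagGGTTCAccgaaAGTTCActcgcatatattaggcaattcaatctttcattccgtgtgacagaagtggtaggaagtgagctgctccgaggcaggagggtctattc
The search was for 2 half-sites, AGGTCA, its variant AGTTCA, its variant GGGTCA or its variant GGTTCA, in direct repeat with 1, 2 or 5 bases between them, on both strands. The Rarb repeat has 5 bases between its half-sites, starts at position -53 relative to the transcription start and lies at 16575513 to 16575529. Such a repeat with 5 bases was present in 32 of 32851 promoters (0.0974%), with 1 base in 0.222% and with 2 bases in 0.268%. Promoters of 8 of the 9 genes matched, 11 in all, and only that of Rarb held one of these repeats. The half-sites and spacings searched include those of the Rarb repeat, which was known beforehand. Its match is therefore a description and no independent find. Among the 55 genes of the wider retinoid lists with a promoter, Cyp26a1, a breakdown enzyme that retinoic acid is known to induce, held the other repeat with 5 bases, on the strand opposite to the gene at chr19:37697776-37697792.
Cyp26a1: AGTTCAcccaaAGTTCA
A match of letters describes the sequence and does not show binding in this tissue. Cyp26a1 itself was listed at 0.03 to 0.20 FPKM in morphine libraries and at 0 to 0.50 in saline libraries, too low to test across genes (exact permutation test, two-sided, p = 0.514, n = 4 each).

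Rarb overlaps Top2b, a topoisomerase gene on the opposite strand, and the protocol names no strand marking, so reads of the 2 genes may be shared where they overlap. Top2b had 7.13 ± 1.22 FPKM in morphine libraries and 6.99 ± 0.790 in saline libraries (SD, n = 4 each), with 7.15 FPKM in saline replicate 3, where Rarb was at its highest. On the opposite strand, Aldh1a1, Aldh1a2 and Cyp2s1 overlap only pseudogenes or non-coding genes that the table does not list. The remaining 5 genes overlap no other annotated gene.

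Rxrg encodes the retinoid X receptor RXRγ (ENSMUSG00000015843, chromosome 1, 167598384 to 167639623, plus strand). It had 25.00, 21.74, 26.73 and 21.33 FPKM in morphine replicates 1 to 4, against 29.02, 19.12, 144.57 and 36.89 FPKM in saline replicates 1 to 4. The groups overlapped, because saline replicate 2 was lower than every morphine library, while saline replicate 3 was 5.10 times the mean of the other saline libraries. The log2 change was -0.80 ± 0.48 (SE) and did not pass (limma adjusted p = 0.385). Without saline replicate 3 it was -0.21 ± 0.19 (limma adjusted p = 0.624).

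The receptor pair did not keep its proportion across the libraries. The ratio of Rarb to Rxrg FPKM, a measure chosen after the values were seen, was 0.303, 0.246, 0.124 and 0.191 in morphine replicates 1 to 4. In saline replicates 1 to 4 it was 0.437, 1.13, 0.83 and 0.589. Each morphine ratio lay below each saline ratio, including that of saline replicate 3. Rarb alone did not overlap between the groups either, so the separation of the ratio in part repeats that of Rarb. Another measure chosen after the values were seen was the log2 level minus the mean of the striatal list in the same library. For Rxrg this difference ran from 1.08 to 1.66 in morphine libraries and from -0.43 to 0.20 in saline libraries, without overlap. For Rarb this difference ran from -1.03 to -0.51 in morphine libraries and from -1.14 to -0.065 in saline libraries, so that there the groups overlapped. The striatal list mean itself did not overlap between the groups (3.14 to 3.62 with morphine, 4.76 to 6.98 with saline). A gene that changes little therefore separates on this measure, so the separation of Rxrg follows largely from the list. How many of the tested genes separate in this way was not computed.

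Among the other receptor genes, Rara had a positive and Rarg a negative change. Rara, the RARα gene, had 6.36, 6.33, 10.14 and 6.76 FPKM in morphine replicates 1 to 4, against 4.01, 4.49, 3.16 and 5.29 FPKM in saline replicates 1 to 4. All morphine values of Rara were above all saline values, as in 6.56% of all tested genes. Its log2 change of 0.67 ± 0.18 (SE) did not pass (limma adjusted p = 0.0765). Rarg, the RARγ gene, averaged 2.09 ± 0.702 FPKM with morphine and 3.65 ± 1.83 with saline (SD, n = 4 each; limma adjusted p = 0.305). Its log2 change was -0.53 ± 0.27 (SE), and -0.30 ± 0.23 without saline replicate 3 (limma adjusted p = 0.536). Of the summed FPKM of the 3 RAR genes, Rarb made up 20.0 to 47.9% in morphine libraries and 69.0 to 92.8% in saline libraries. Rara made up 40.2 to 61.1% in morphine libraries and 2.44 to 21.8% in saline libraries. Neither share overlapped between the groups, and with 3 genes a lower share of one raises the shares of the others. These shares, and the RXR share below, were chosen after the values were seen. Rxra and Rxrb, the other RXR genes, averaged 4.21 ± 0.364 and 9.87 ± 2.07 FPKM with morphine and 3.52 ± 0.585 and 8.76 ± 1.05 with saline (SD, n = 4 each; limma adjusted p = 0.424 and 0.681). Rxrg made up 57.2 to 67.1% of the summed RXR FPKM in morphine libraries and 60.2 to 91.1% in saline libraries.

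Aldh1a2 encodes the retinaldehyde dehydrogenase RALDH2, which turns retinal into retinoic acid (ENSMUSG00000013584, chromosome 9, 71215789 to 71296243, plus strand). It had 0.98, 0.92, 0.92 and 1.36 FPKM in morphine replicates 1 to 4, against 7.57, 4.14, 11.04 and 1.43 FPKM in saline replicates 1 to 4. The morphine libraries were alike and the saline libraries were spread widely, with saline replicate 4 next to the morphine values. The gene passed the filter in 5 libraries, all 4 saline libraries and 1 morphine library. Its mean was 1.05 ± 0.212 FPKM with morphine and 6.05 ± 4.17 with saline (SD, n = 4 each), and the log2 change of -1.56 ± 0.40 (SE) did not pass (limma adjusted p = 0.0706). Without saline replicate 4 it was -1.99 ± 0.26 and passed (limma adjusted p = 0.0119), and without saline replicate 3 it was -1.22 ± 0.34 (limma adjusted p = 0.0908). Without any of the remaining libraries it also missed the threshold (limma adjusted p between 0.119 and 0.176).

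Aldh1a1 encodes RALDH1, the other main enzyme of this step, known from a subset of midbrain dopamine neurons that project to the striatum (ENSMUSG00000053279, chromosome 19, 20492715 to 20643465, plus strand). It had 13.41, 24.59, 16.12 and 8.88 FPKM in morphine replicates 1 to 4, against 36.69, 38.41, 14.00 and 20.45 FPKM in saline replicates 1 to 4. The groups overlapped, and saline replicate 3 had the lowest saline value here, unlike in Aldh1a2. The log2 change was -0.73 ± 0.34 (SE; limma adjusted p = 0.267), and without saline replicate 3 it was -1.0 ± 0.31 (limma adjusted p = 0.117). Of the dopamine neuron markers, Th, the rate-limiting enzyme of dopamine synthesis, ranged from 1.64 to 50.97 FPKM in morphine libraries and from 3.76 to 7.99 in saline libraries. Slc6a3, the dopamine transporter gene, ranged from 0.73 to 1.33 FPKM in morphine libraries and from 0.22 to 0.80 in saline libraries. Both were chosen after their values were seen. Of the 4 dopamine neuron markers that were tested, 1 rose, 0 fell, 2 had positive and 2 had negative changes. Over all 10 markers of that list the summed level was 28.8 to 76.1 FPKM with morphine and 15.3 to 20.2 with saline, but without its top gene Nr4a2 the sums overlapped, at 8.48 to 58.7 FPKM with morphine and 10.4 to 17.6 with saline. Pitx3, En1, Foxa2 and Lmx1b were listed at 0 in at least 1 library, and the list's part in the Aldh1a1 values was not tested. Aldh1a7, a close paralog of Aldh1a1 with which reads may be shared, had 0.27 to 0.70 FPKM in morphine libraries and 0.46 to 1.75 in saline libraries.

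Aldh1a1 was the more abundant of the pair in every library. It made up 80.9 to 95.1% of the summed FPKM of Aldh1a1, Aldh1a2 and Aldh1a3 in morphine libraries, against 54.1 to 89.6% in saline libraries. Aldh1a2 reached its largest share, 42.7%, in saline replicate 3. These shares were also chosen after the values were seen. Aldh1a3, the remaining gene of this enzyme group, stayed below 1 FPKM in all libraries, with a mean of 0.460 ± 0.196 FPKM with morphine and 0.625 ± 0.318 with saline (SD, n = 4 each; exact permutation test, two-sided, p = 0.4).

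Crabp2 encodes a carrier that delivers retinoic acid to its receptors in the nucleus (ENSMUSG00000004885, chromosome 3, 87948666 to 87953376, plus strand). It had 2.50, 2.23, 1.00 and 4.13 FPKM in morphine replicates 1 to 4, against 14.53, 5.07, 13.21 and 2.79 FPKM in saline replicates 1 to 4. Morphine replicate 4 was above saline replicate 4, and all other saline values were above all morphine values. The log2 change was -1.36 ± 0.44 (SE) and missed the threshold (limma adjusted p = 0.124). Leaving out saline replicate 4 gave -1.75 ± 0.38 and a pass (limma adjusted p = 0.0406). Without saline replicate 3 it was -1.11 ± 0.44 (limma adjusted p = 0.217), and it missed the threshold without any of the remaining libraries as well (limma adjusted p between 0.146 and 0.287).

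Aldh1a2 and Crabp2 were high and low in the same saline libraries as genes of the meninges. The 18 meningeal fibroblast markers, which include neither gene, summed to 355 to 547 FPKM in morphine libraries. In saline replicates 1 to 4 they summed to 4199, 1699, 4868 and 542 FPKM. Most of that sum was Ptgds, the prostaglandin D synthase gene, which oligodendrocytes also express. Ptgds had 303 to 466 FPKM in morphine libraries and 3951, 1548, 4572 and 436 FPKM in saline replicates 1 to 4. Without Ptgds the markers summed to 51.8 to 80.9 FPKM in morphine libraries and to 249, 151, 296 and 106 FPKM in saline replicates 1 to 4. Foxc1 and Foxd1, transcription factor genes of these cells, were listed at 0 in at least 1 library. Of the 14 markers tested, 3 fell, 0 rose and all 14 had negative changes, with a median log2 change of -1.27, where the median of all genes tested was 0.01. Some other cell type lists also lay lower with morphine, and others did not. Of 24 striatal markers 14 fell, 0 rose and 23 had negative changes (median log2 change -2.22). Of 14 tested cortical markers 1 rose, 0 fell and 12 had positive changes (median 0.515). Of 11 tested claustrum and amygdala markers 4 rose, 0 fell and 6 had positive changes (median 0.471). Of 12 microglia markers 0 passed (median -0.095). Of 16 tested endothelial markers 4 fell and 15 had negative changes, and the list mean was 2.81 to 2.99 in morphine libraries and 3.25 to 3.56 in saline libraries. Of 15 astrocyte markers 3 fell and 14 had negative changes, with list means of 5.80 to 6.15 in morphine libraries and 6.30 to 6.70 in saline libraries. All 12 oligodendrocyte markers had negative changes, and 0 passed with limma (7 at an unadjusted p under 0.05). For the striatal and meningeal lists, fits with the list mean as a covariate are given below as a description. Such fits cannot tell the list from the treatment. The part of the remaining lists in the members' values was not tested. The log2 level of Aldh1a2 minus the mean of the meningeal list ran from -1.75 to -1.02 in morphine libraries and from -1.49 to -1.07 in saline libraries. For Crabp2 this difference ran from -1.3 to 0.097 in morphine libraries and from -0.97 to -0.33 in saline libraries. In both genes the groups overlapped on this measure, which was chosen after the values were seen.

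**Figure D2:**
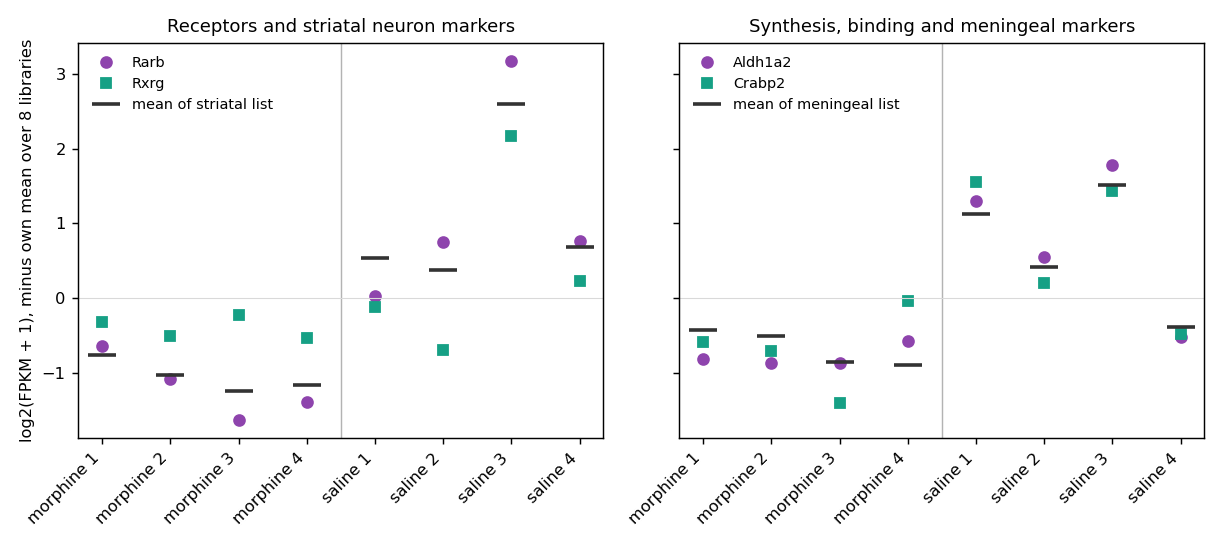
Levels in each library as log2(FPKM + 1) minus the gene's own mean over the 8 libraries (vertical axis), morphine libraries left of saline libraries (horizontal axis). Purple circles and green squares are single genes, Rarb and Rxrg on the left and Aldh1a2 and Crabp2 on the right, and dark bars are the mean of the striatal or meningeal marker list. In saline replicate 3 both receptors and the striatal list are at their highest, and in saline replicate 4 Aldh1a2, Crabp2 and the meningeal list are near the morphine libraries.

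Rbp4 encodes the retinol carrier of blood (ENSMUSG00000024990, chromosome 19, 38116629 to 38125281, minus strand). It had 26.77, 18.66, 16.01 and 12.11 FPKM in morphine replicates 1 to 4, against 22.59, 15.04, 10.48 and 17.78 FPKM in saline replicates 1 to 4. The groups overlapped throughout, and the log2 change was 0.14 ± 0.25 (SE; limma adjusted p = 0.797). Its sign was not stable. It was -0.05 without morphine replicate 1 and -0.04 without saline replicate 3.

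Cyp26b1 encodes the enzyme that clears retinoic acid in much of the brain (ENSMUSG00000063415, chromosome 6, 84571414 to 84593908, minus strand). It stayed below 1 FPKM in every library and was not among the genes tested. Its values were 0.43, 0.56, 0.43 and 0.36 FPKM in morphine replicates 1 to 4, against 0.95, 0.18, 0.68 and 0.21 FPKM in saline replicates 1 to 4. The morphine values lay inside the saline range (log2 difference -0.03; exact permutation test, two-sided, p = 0.857, n = 4 each). The smallest p that 4 against 4 libraries allow in this test is 0.0286.

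Aox1 encodes an aldehyde oxidase that can turn retinal into retinoic acid (ENSMUSG00000063558, chromosome 1, 58029931 to 58106413, plus strand). It had 0.36, 0.55, 0.49 and 0.43 FPKM in morphine replicates 1 to 4, against 1.11, 1.49, 1.16 and 1.14 FPKM in saline replicates 1 to 4. Its mean was 37.3% of the saline mean, 0.458 ± 0.0814 FPKM with morphine and 1.23 ± 0.178 with saline (SD, n = 4 each). It met the filter only through the 4 saline libraries. The log2 difference was -0.61 ± 0.13 (SE), and -1.25 ± 0.27 with a pseudocount of 0.1, which weighs low values more. Aox3, a related gene of the same family, had 0.06 to 0.20 FPKM in morphine libraries and 0.17 to 0.96 in saline libraries, and reads may be shared between them.

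Cyp2s1 encodes a cytochrome P450 enzyme that has been shown to metabolize retinoic acid (ENSMUSG00000040703, chromosome 7, 25802475 to 25816913, minus strand). It had 1.10, 0.98, 0.89 and 1.3 FPKM in morphine replicates 1 to 4, against 2.38, 2.65, 2.35 and 2.02 FPKM in saline replicates 1 to 4. The means were 1.07 ± 0.177 FPKM with morphine and 2.35 ± 0.258 with saline (SD, n = 4 each), a log2 difference of -0.70 ± 0.13 (SE), and -1.07 ± 0.21 with a pseudocount of 0.1. Saline replicate 3 was at 0.930 times the mean of the other saline libraries in Aox1 and 1.00 times in Cyp2s1.

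Both marker lists had means that lay lower in every morphine library than in every saline library (meningeal list 2.26 to 2.73 with morphine and 2.77 to 4.66 with saline). With either mean as a covariate, the change in the list and the treatment therefore cannot be told apart, and the values below are a description. Adjusted for the striatal list mean, the log2 change was 0.36 ± 0.35 for Rarb and 1.56 ± 0.32 for Rxrg (SE; limma adjusted p = 0.793 and 0.152). With that covariate it was -0.38 ± 0.64 for Aldh1a2 and -0.40 ± 0.77 for Crabp2 (limma adjusted p = 0.895 and 0.909). For Aldh1a2 and Crabp2 these values lie nearer to 0 than without a covariate, as do those with the meningeal covariate. For Rxrg the value with the striatal covariate lies further from 0 than the -0.80 without a covariate. With the meningeal mean the log2 change was -0.10 ± 0.30 for Aldh1a2 and 0.05 ± 0.46 for Crabp2 (limma adjusted p = 0.973 and 0.995). For Rarb and Rxrg it was -1.21 ± 0.79 and 0.21 ± 0.69 (limma adjusted p = 0.858 and 0.975). The Aldh1a1 change was -1.84 ± 0.53 with the striatal and -0.78 ± 0.58 with the meningeal covariate (limma adjusted p = 0.261 and 0.867). For Aox1 and Cyp2s1, which were picked for being lower, the log2 differences were -0.70 ± 0.26 and -0.71 ± 0.27 with the striatal covariate and -0.65 ± 0.22 and -0.63 ± 0.22 with the meningeal one, with larger SEs than without a covariate.

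**Figure D3:**
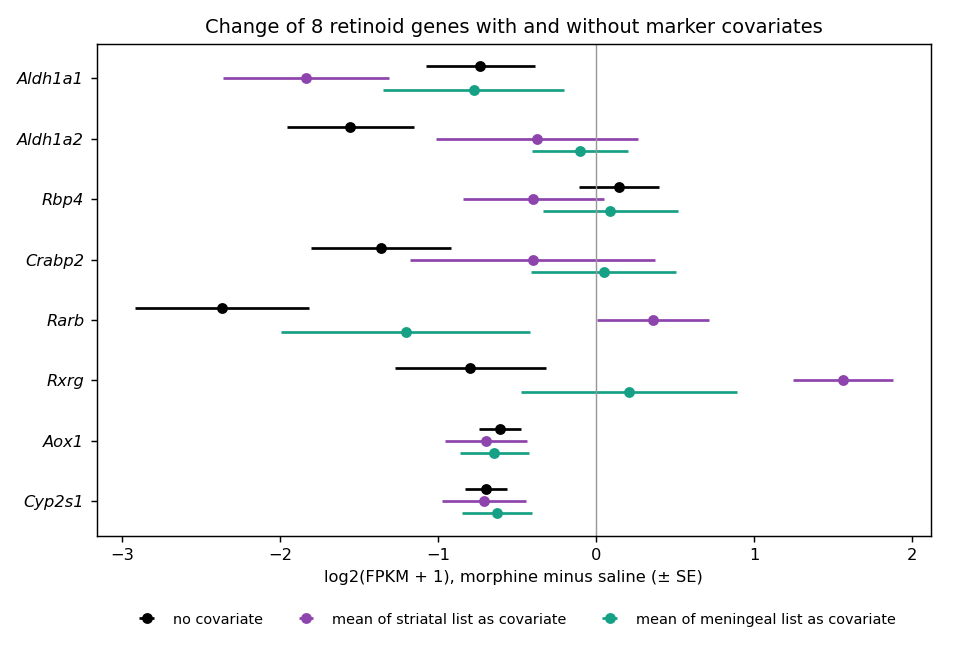
Change of the 8 tested genes as the difference of log2(FPKM + 1), morphine minus saline (horizontal axis, points with SE), without a covariate in black, with the mean of the striatal marker list in purple and with the mean of the meningeal list in green. Rarb is at -2.37 without a covariate and at 0.36 with the striatal one, and Aldh1a2 is at -1.56 without a covariate, -0.38 with the striatal and -0.10 with the meningeal one.

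Genes whose pattern over the 8 libraries was most like that of a member were named by the smallest mean absolute difference between the log2 values, each centred on its own mean. For Rarb these were Cd4, at 0.21, Pde10a, a phosphodiesterase gene of striatal neurons, at 0.21, and Ppp1r1b, which encodes the dopamine signalling protein DARPP-32, at 0.25. For Rxrg they were Ptpn5, a striatum-enriched phosphatase gene, at 0.12, the transcription factor gene Pou3f4 at 0.18 and Mctp1 at 0.18. Pde10a, Ppp1r1b and Ptpn5 are in the striatal list. For Aldh1a2 the most alike were the transporter genes Slc22a8, at 0.18, and Slc6a20a, at 0.20, and the growth factor gene Igf2, at 0.23. For Crabp2 they were Fam180a, at 0.15, Emp3, at 0.21, and Serping1, which encodes an inhibitor of complement, at 0.30. Slc6a20a and Igf2 are in the meningeal list. For Aldh1a1 they were the carbonic anhydrase gene Car3, at 0.18, Lypd6, at 0.19, and Kazald1, at 0.23, and none of these is in a list used here. Ptpn5 shows how close the match to Rxrg was, with 62.5, 54.3, 62.4 and 52.9 FPKM in morphine replicates 1 to 4 and 67.3, 65.6, 299 and 83.7 FPKM in saline replicates 1 to 4. Likeness is a description over 8 libraries that share the group difference and the departure of saline replicate 3.

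The retinoid lists held 71 genes, the 9 included, of which 45 were tested. Leaving out the 9 genes, 37 were tested, of which 1 rose, 1 fell and 35 did not pass, where 2.52% of all genes tested passed. Their median log2 change was -0.02 beside 0.01 for all genes tested, and 13 of them had an unadjusted limma p under 0.05, which 20.1% of all tested genes had. Among 7 tested carriers and uptake genes none passed (2 at an unadjusted limma p under 0.05), with a median of -0.24. Among 10 tested genes of retinol and retinal interconversion none passed with limma (5 at an unadjusted p under 0.05), with a median of -0.23. Among 8 tested coregulators none passed (1 at an unadjusted p under 0.05), with a median of 0.13. Among 10 tested genes known to respond to retinoic acid 1 rose and 1 fell (5 at an unadjusted limma p under 0.05), with a median of -0.09. In the KEGG pathway of retinol metabolism, as the deposited table assigns it, 13 of 102 genes were tested. It includes 5 of the 9 genes, and without them 9 were tested, of which none passed (5 at an unadjusted p under 0.05), with a median of -0.42.

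Gprc5c, an orphan receptor gene of a family induced by retinoic acid, fell to 1.10 ± 0.414 FPKM with morphine, against 3.67 ± 1.04 with saline (SD, n = 4 each; limma adjusted p = 0.0231). Bhlhe40, a transcription factor gene that is induced by retinoic acid and also belongs to the circadian clock, rose to 26.8 ± 3.95 FPKM with morphine, against 16.6 ± 1.11 with saline (SD, n = 4 each; limma adjusted p = 0.0350). Gprc5c and Bhlhe40 missed the threshold without morphine replicate 2, 3 or 4 or saline replicate 1 or 2, with limma adjusted p between 0.0548 and 0.0821 for Gprc5c and between 0.0709 and 0.123 for Bhlhe40.

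Stra6, the membrane receptor that takes up retinol from RBP4, had 2.68, 2.10, 1.66 and 1.54 FPKM in morphine replicates 1 to 4, against 4.62, 4.08, 29.85 and 4.82 FPKM in saline replicates 1 to 4. The groups did not overlap, with the morphine libraries lower, as in 6.1% of all tested genes. The log2 change of -1.51 ± 0.49 (SE) missed the threshold with saline replicate 3 (limma adjusted p = 0.126) and passed without it (-0.89 ± 0.17, limma adjusted p = 0.0270). Rdh10, which makes retinal from retinol, averaged 1.32 ± 0.360 FPKM with morphine and 3.15 ± 2.10 with saline (SD, n = 4 each; limma adjusted p = 0.167). Leaving out saline replicate 3, its saline mean was 2.11 FPKM. Its log2 change was then -0.435 ± 0.162 (SE; limma adjusted p = 0.192), against -0.743 ± 0.273 with all libraries. Dhrs3, which works in the reverse direction to Rdh10, averaged 22.8 ± 5.81 FPKM with morphine and 30.5 ± 2.93 with saline (limma adjusted p = 0.174). Crabp1, the paralog of Crabp2, averaged 3.09 ± 0.827 FPKM with morphine and 3.83 ± 1.20 with saline (limma adjusted p = 0.574). Ttr, which carries RBP4 and is abundant in choroid plexus, ranged from 0.06 to 12.65 FPKM in morphine libraries and from 0.94 to 29.03 in saline libraries (limma adjusted p = 0.463).

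**Figure D4:**
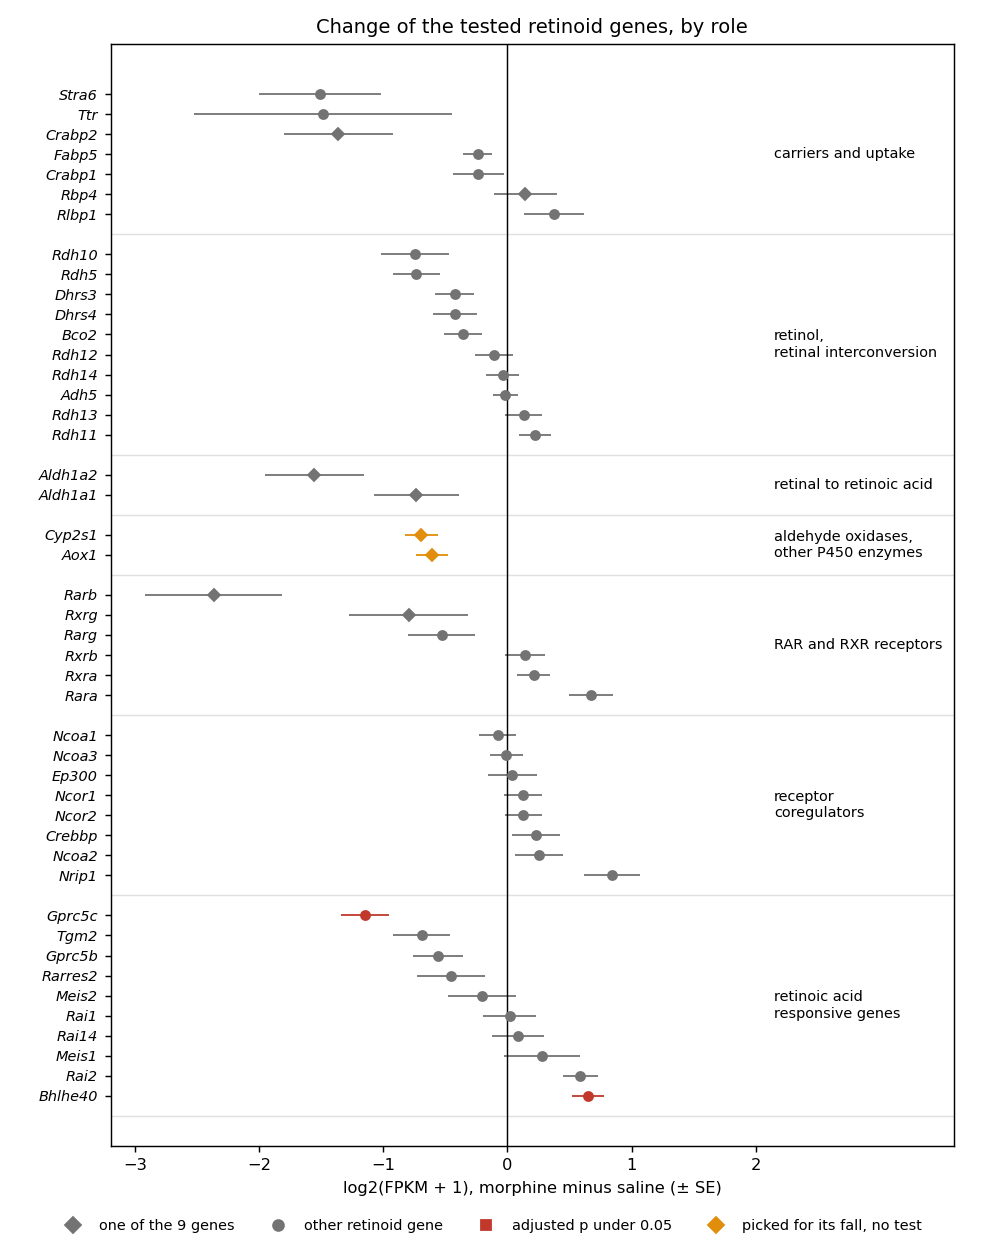
Difference of log2(FPKM + 1), morphine minus saline, with SE (horizontal axis) for the 45 tested genes of the retinoid lists, grouped by role from top to bottom. Diamonds are the genes described above, circles the other genes, red marks an adjusted p under 0.05 and orange the 2 genes picked for their fall, which have no test. Rarb has the lowest value, -2.37, and Nrip1 the highest, 0.84.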

How the data were processed

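RNA from the nucleus accumbens was profiled in 4 morphine and 4 saline libraries. Per the labels' protocols, RNA was isolated with Trizol, full-length cDNA was made with an oligo-dT primer and template switching, and the PCR product was read on the Illumina NovaSeq platform. No molecular identifiers or strand marking are named. The authors deposited 1 table of FPKM values, 1 column per library per the file headers. Per the submitters' processing notes, the tools were RSEM, StringTie 1.3.1, HISAT2, fastp 0.18.0 and Bowtie2 2.2.8 and the build was mm10, with roles not given in the sources used here. No depth or counting interval is given.

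Symbols and coordinates (1-based) are from GENCODE M21 (GRCm38), which 22232 of 22337 identifiers matched. Of the table's columns, 0 belonged to other samples. On the log2(FPKM + 1) scale, limma 3.58.1 (R 4.3.3) was run on the genes reaching 1 FPKM in 4 or more libraries (mean-variance trend, two-sided, Benjamini-Hochberg over all genes, threshold 0.05). The script was tested on simulated data. The members, gene lists and tests were chosen with earlier results of these data known. Named genes were the 9 genes, all genes of the retinoid lists past the threshold, 11 retinoid genes whatever their outcome (1 further gene of the lists is not reported here), and for likeness the 3 nearest genes to each tested member with an SD of at least 0.5 (log2). Top2b, Aldh1a7, Aox3, Th, Slc6a3, Nrip1, Rai2 and Rdh5 were chosen after their values were seen. Exact permutation tests used the 70 assignments of the 8 libraries. Alternatives were other pseudocounts, filters, scalings, covariates, a replicate block and each library left out.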

Additional observations from a re-analysis of the deposited data

Results flagged for a closer look

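In 11 cases, among 44 groups of 4 libraries examined, 1 library stood further from its group than is usual for 4 values. For independent, normally distributed values chance gives this in about 1 of 20 groups. The groups here are FPKM values that share the same libraries, so that rate is only a guide. Saline replicate 3 was high in Rarb (120.02 FPKM, others 12.69 to 21.74), Rxrg (144.57 FPKM, others 19.12 to 36.89), Stra6 (29.85 FPKM, others 4.08 to 4.82) and Rdh10 (6.29 FPKM, others 1.92 to 2.27). In the same library the striatal marker list was at its highest. Saline replicate 2 was high in Aox1 (1.49 FPKM, others 1.11 to 1.16).

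Among the morphine libraries, replicate 3 was high in Rara (10.14 FPKM, others 6.33 to 6.76) and Rarg (3.13 FPKM, others 1.66 to 1.88). Replicate 4 was high in Aldh1a2 (1.36 FPKM, others 0.92 to 0.98) and Rdh10 (1.85 FPKM, others 1.10 to 1.20). Replicate 1 was high in Ttr (12.65 FPKM, others 0.06 to 2.00) and low in Bhlhe40 (20.93 FPKM, others 28.71 to 29.02).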

How the results depend on the processing

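With all 8 libraries, 316 genes passed, 130 higher and 186 lower. The count was 17 with no filter on low values, 5 with the replicate block, 3 with the striatal and 0 with the meningeal covariate (737 at an unadjusted p under 0.05 with limma), and 0 to 450 with 1 library left out. The 3 counts of 0 among these were accompanied by 1953 (without morphine replicate 3), 2136 (morphine replicate 4) and 2005 genes (saline replicate 2) at an unadjusted limma p under 0.05. With mitochondrial genes removed, 74 rose and 272 fell, a share of 21.4% higher against 41.1%. The labels do not say whether libraries with the same replicate number were paired. Correlations of deviations between them were 0.0522, 0.0375, -0.0592 and -0.205, which cannot show whether they were paired. With the replicate block 0 of the 7 members passed.

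Of the 7 members, 0 passed, against 1 with a pseudocount of 0.1 or 0.5 or without mitochondrial genes (Rarb each time), and 0 to 2 with 1 library left out. In the retinoid lists without the members, the 1 higher gene became 0 with no filter, the block or either covariate and 0 to 2 with 1 library left out. The 1 lower gene became 0 under those same settings and with an FPKM of at least 5, and 0 to 2 with 1 library left out. The lists' median of -0.02 became 0.127 with an FPKM of at least 5, 0.02 with quantile scaling and 0.186 with the striatal covariate, and ran from -0.079 to 0.009 with 1 library left out (0.009 without saline replicate 3).

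The sign turned with the striatal covariate in Rbp4 (-0.40), Rarb (0.36), Rxrg (1.56), Crabp1 (0.45), Rarg (0.29), Rdh10 (0.43), Stra6 (0.99) and Ttr (1.83), and with the meningeal covariate in Crabp2 (0.047), Rxrg (0.21) and Crabp1 (0.06). It turned in Cyp26b1 with a pseudocount of 0.1 (0.066). With 1 library left out, Rbp4 ranged from -0.046 to 0.315 and Cyp26b1 from -0.13 to 0.11. The cause was not tested. Depth is unknown, and precision rests on 4 libraries a group.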

Other observations

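Further retinoid genes, chosen after their values were seen, did not pass the test but are given with their values. In Rdh5 and Rai2 the groups did not overlap, as in 12.7% of all tested genes (6.1% with the morphine libraries lower, 6.56% higher). Rdh5, a retinol dehydrogenase gene, had 2.76, 4.06, 5.57 and 2.73 FPKM in morphine replicates 1 to 4, against 7.45, 6.39, 5.90 and 7.31 FPKM in saline replicates 1 to 4 (limma adjusted p = 0.0711). Rai2, named for its induction by retinoic acid, had 6.69, 5.81, 7.37 and 8.83 FPKM in morphine replicates 1 to 4, against 4.96, 4.55, 4.12 and 3.99 FPKM in saline replicates 1 to 4 (limma adjusted p = 0.0607). Nrip1, a corepressor of nuclear receptors that retinoic acid is known to induce, averaged 9.58 ± 2.45 FPKM with morphine and 4.99 ± 1.92 with saline (SD, n = 4 each; limma adjusted p = 0.0751). In Nrip1 the groups overlapped, since morphine replicate 1 had 7.47 FPKM and saline replicate 4 had 7.81 FPKM.

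In the search of promoters, Bco1, which cleaves carotenoids to retinal, held a direct repeat with 1 base between its half-sites, on the strand opposite to the gene at chr8:117095809-117095821.
Bco1: AGGTCAaAGGTCA
The half-sites are in capitals.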
